A study of Rattus norvegicus with 12 samples.

Results

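The 10 genes Tfam, Tfb1m, Tfb2m, Polrmt, Tefm, Mterf2, Polg, Polg2, Twnk and Ssbp1 encode factors that copy and transcribe the mitochondrial genome. They were taken by gene name from a table of read counts, where each name matched 1 of 30560 rows. The libraries came from the red part of the gastrocnemius, an oxidative calf muscle, of wild-type male Wistar Kyoto rats aged 9 weeks. A group of 6 libraries, called mitochondria libraries here, held RNA of mitochondria pulled out of fresh muscle by immunoprecipitation, with RNase A and proteinase K steps before extraction. The other 6 held RNA of snap-frozen whole muscle without enzyme treatment, and the replicate numbers pair the groups by animal. All libraries were total RNA depleted of ribosomal RNA, made from 10 ng for mitochondria and 50 ng for muscle. The question named in the study's title is which nuclear-encoded non-coding RNAs localize to muscle mitochondria.

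Mitochondrial DNA is a small circle kept in many copies per cell, and every protein that copies or reads it is encoded in the nucleus and imported. Tfam packages the DNA into nucleoids and bends the promoters, where Tfb2m melts the strands and the single-subunit RNA polymerase Polrmt starts transcription. DNA polymerase gamma, made of the catalytic subunit Polg and the accessory subunit Polg2, works at the fork with the helicase Twnk (Twinkle) and the single-strand binding protein Ssbp1. The mRNAs of these genes are nuclear transcripts, which are usually translated in the cytosol, and a count of reads on these genes is no measure of the protein inside the organelle.

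The mitochondria libraries were shallow, at 720111 to 1785865 gene counts against 24309444 to 32055355 in muscle. The 37 genes of the mitochondrial genome took 12.9% to 51.5% of counts in mitochondria libraries and 26.4% to 35.9% in muscle libraries, so that this defining RNA was not uniformly higher in the libraries labelled mitochondria. To keep that share out of the values below, levels are given as nuclear CPM, a gene's counts scaled to 1000000 counts on nuclear genes of the same library. The 10 genes together made up 0.0406% ± 0.00139 of nuclear counts in mitochondria libraries and 0.0237% ± 0.00193 in muscle libraries (SD, n = 6 each). A gene had 9 to 91 counts in a mitochondria library and 34 to 1285 in a muscle library. Between 27803 and 28708 genes had a count in a mitochondria library, against 16931 to 17776 in a muscle library, although muscle was sequenced more deeply. In bulk RNA of this kind, fewer cells of a type and less RNA per cell cannot be told apart.

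The promoters of 4 of the genes are printed because these 4 kept 1 direction under each of the 5 scalings described below, Tfam and Tfb2m lower and Polg2 and Mterf2 higher in mitochondria libraries. Each run goes from 250 bases before to 50 bases after the RefSeq gene start in GRCr8, an assembly that is not the build of the counts. Capitals mark matches on either strand to the core of ETS family sites such as that of GABP (CCGGAAG) or to a core of the NRF1 site (GCGCANGCG), which were chosen after the promoters had been seen.
Tfam promoter, GRCr8 chr20:17355123-17355422, plus strand: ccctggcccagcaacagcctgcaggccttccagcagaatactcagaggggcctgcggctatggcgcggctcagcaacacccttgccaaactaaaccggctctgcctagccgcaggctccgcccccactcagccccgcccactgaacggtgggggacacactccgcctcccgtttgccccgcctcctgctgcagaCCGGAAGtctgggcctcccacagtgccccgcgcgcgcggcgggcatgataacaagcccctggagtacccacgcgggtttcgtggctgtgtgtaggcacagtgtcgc
Tfb2m promoter, GRCr8 chr13:93828545-93828844, minus strand: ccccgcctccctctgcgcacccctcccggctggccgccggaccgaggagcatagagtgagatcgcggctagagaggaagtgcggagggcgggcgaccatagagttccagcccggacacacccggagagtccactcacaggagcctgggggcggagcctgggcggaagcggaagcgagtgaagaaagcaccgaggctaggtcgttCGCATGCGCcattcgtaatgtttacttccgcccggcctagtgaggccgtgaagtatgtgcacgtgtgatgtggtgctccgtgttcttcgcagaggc
Polg2 promoter, GRCr8 chr10:92222677-92222976, minus strand: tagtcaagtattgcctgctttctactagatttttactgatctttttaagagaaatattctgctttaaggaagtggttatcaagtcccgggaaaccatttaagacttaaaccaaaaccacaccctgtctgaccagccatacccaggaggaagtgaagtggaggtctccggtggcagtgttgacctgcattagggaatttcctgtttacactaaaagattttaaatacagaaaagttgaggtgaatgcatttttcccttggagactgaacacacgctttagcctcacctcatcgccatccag
Mterf2 promoter, GRCr8 chr7:20485651-20485950, plus strand: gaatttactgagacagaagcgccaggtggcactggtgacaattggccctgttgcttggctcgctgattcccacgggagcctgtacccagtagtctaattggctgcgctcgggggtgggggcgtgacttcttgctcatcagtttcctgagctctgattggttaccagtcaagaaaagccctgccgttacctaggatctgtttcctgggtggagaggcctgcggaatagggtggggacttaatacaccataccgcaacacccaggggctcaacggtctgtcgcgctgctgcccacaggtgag

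The Tfam promoter held 1 ETS match, which began 56 bases before the gene start, and the Tfb2m promoter held 1 NRF1 match, 46 bases before it. The Polg2, Mterf2 and Tfb1m promoters held neither. ETS matches were also present for Polrmt, Tefm, Polg, Twnk and Ssbp1, which makes 6 of 10 genes against 8.75% of 33469 rat promoters of 300 bases, and an NRF1 match stood in 2 of 10, Tfb2m and Polrmt, against 5.80%. The Polg2 promoter was the poorest in GC of the 10, at 42% with 4 CpG dinucleotides, and that of Tfam the richest, at 67.7% with 22. Over all promoters the medians were 51.7% GC and 7 CpG dinucleotides. Both cores contain CpG, and the shares were not computed among promoters of like CpG count. With the cores also chosen after these promoters had been seen, the contrast is a description and no measure of excess. A match is a run of letters and says nothing of binding, and these libraries do not measure promoters.

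Set against whole muscle, the 10 genes spread over a wide range of fold changes, from Tfb2m and Tfam at the low end to Mterf2 and Polg2 at the high end. Of the 10, 7 had nuclear CPM values in all 6 mitochondria libraries above those of all 6 muscle libraries, 1 (Tfb2m) lay below without overlap, and Tfam and Ssbp1 overlapped. Such separation was common: 81.7% of nuclear genes tested were higher without overlap and 7.35% lower. TMM scaling sets libraries by a weighted mean of the fold changes between them, with the extremes trimmed. With it, edgeR's quasi-likelihood test called 2 of the 10 higher and 8 lower, where 63% of 24679 genes tested were higher and 30.3% lower. With nuclear counts as the only scaling, 7 were higher and 2 lower, against a background of 85.6% and 9.29%. The median log2 fold change of all genes tested was 2.51 with TMM and 4.67 with nuclear counts, and all 10 genes lay below it under both. That place was common among genes expressed in muscle. With TMM, 89.8% of nuclear genes with at least 1 CPM of all counts in muscle had a lower fold change than Polg2, the highest of the 10. Among nuclear genes with at least 1 CPM of all counts in muscle, where 62.2% were lower and 24.7% higher with TMM, 7 of the 10 lay below the median of -0.86 and Tfb1m, Mterf2 and Polg2 above it. Between TMM, RLE, total and nuclear counts, a change of scaling shifted the 10 genes by nearly the same amount. With mitochondrial genome counts as library size the shift was less even. Against nuclear counts, Tfb2m went from -0.78 to -0.72 and Tefm from 0.73 to 1.16. The order of the 10 genes by fold change was the same under all 5 scalings.

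The count of calls among the 10 under the other settings follows, each beside its background. Of the 10, 2 were higher and 7 lower with RLE size factors, where the background was 66.5% higher and 26.6% lower. With total counts 7 were higher and 2 lower, against 84.3% and 9.03% of all genes. Per mitochondrial genome count, the scaling that takes the mitochondrial genome's counts as the size of a library, 6 were higher (background 80.7%) and edgeR called 0 lower (background 4.4%), with 0 lower also at an unadjusted p under 0.05. Precision was lower there, with an SE of 0.50 (Polg) to 0.63 (Polg2) for the 10 genes, against 0.11 (Polg) to 0.21 (Tfb1m) with nuclear counts. Without the filter on low counts and with the animal as a block, the calls were 2 higher and 8 lower, as with TMM, against 66.6% and 25.7% of genes without the filter and 62.9% and 30.1% with the block. DESeq2 called 2 higher and 7 lower, against 68.7% and 21.8%. Tested against a fold of 2, 1 was higher and 5 lower, against 56.7% and 21%. With every library thinned to the nuclear depth of the shallowest, 9 of the 10 could be tested, of which 2 were higher and 3 lower, against 58.6% and 27.9%. Thinning thus left fewer of the 10 called lower. The shares over all genes are of unlike sets, 14946 genes after thinning and 24679 with TMM. Among nuclear genes with at least 1 CPM in muscle, 39.7% were lower after thinning and 62.2% with TMM. The median log2 fold change of those genes was 0.066 after thinning and -0.86 with TMM.

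**Figure D1:**
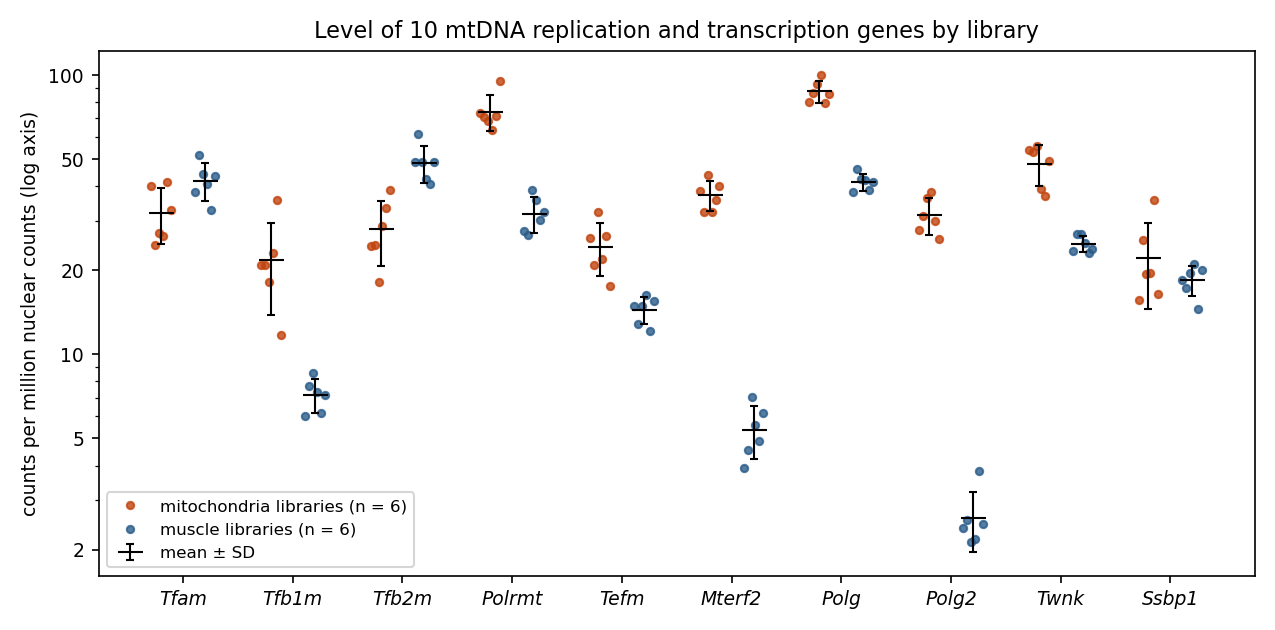
Nuclear CPM of each gene on a log axis, with 1 point per library, mitochondria libraries (n = 6) to the left of muscle libraries (n = 6), and bars at the mean ± SD. Polg2 and Mterf2 lay furthest above muscle, Tfb2m lay below it without overlap, and Tfam and Ssbp1 overlapped.

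**Figure D2:**
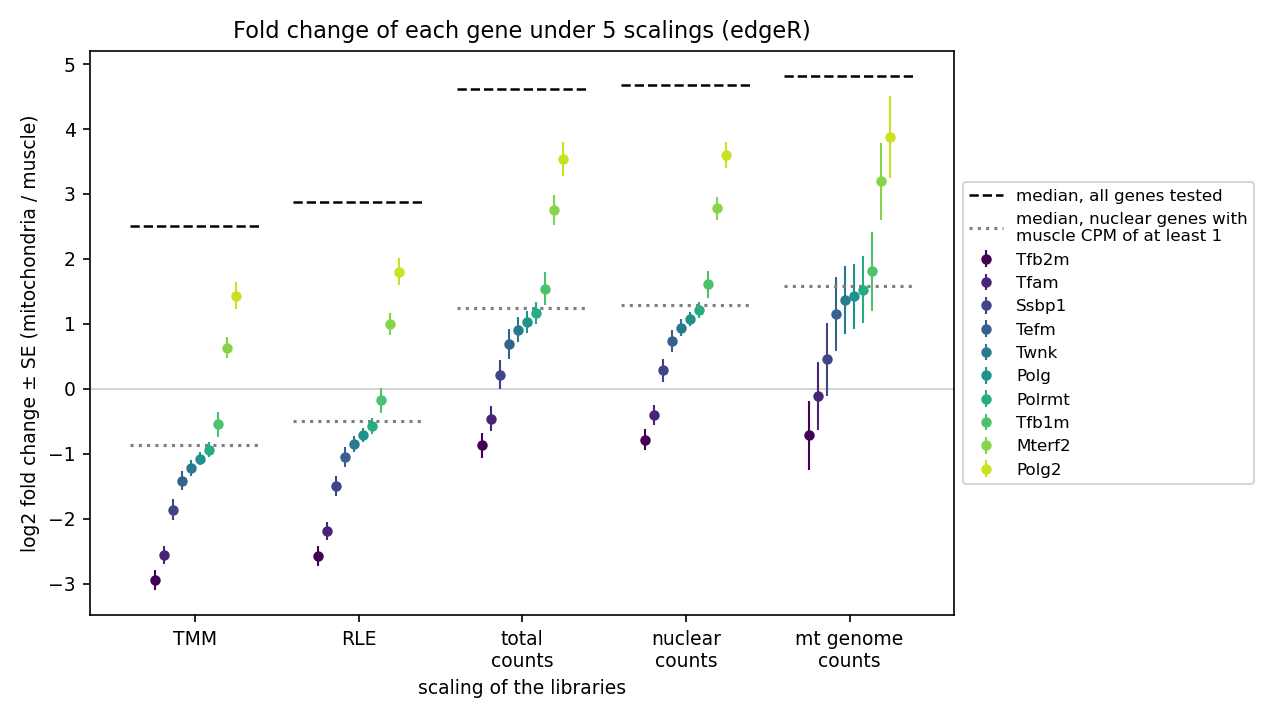
Log2 fold change of mitochondria over muscle with its SE (edgeR) for each gene under 5 scalings of the libraries, beside the median of all genes tested (dashed) and of nuclear genes with at least 1 CPM in muscle (dotted). The genes keep their order while the zero line moves through them. Changes between TMM, RLE, total and nuclear counts shift all 10 by nearly the same amount. All 10 stay under the dashed median. With TMM, so do at least 89.8% of nuclear genes with at least 1 CPM in muscle.

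Among the factors that start transcription, Tfam and Tfb2m were lower in mitochondria libraries. Tfb2m (ENSRNOG00000002695) had 18.1 to 38.8 nuclear CPM in mitochondria libraries (median 26.7), against 40.7 to 61.7 in muscle (median 48.8). The groups did not overlap, and the value was lower in mitochondria in 6 of 6 animals. Its log2 fold change was -2.94 ± 0.15 with TMM (SE, edgeR adjusted p = 1.59e-17) and -0.78 with nuclear counts (edgeR adjusted p = 3.34e-05). Per mitochondrial genome count it was -0.72 ± 0.53 and did not pass (SE, edgeR adjusted p = 0.193), where the SE with nuclear counts was 0.16. Tfam (ENSRNOG00000000613) had 24.6 to 41.5 nuclear CPM in mitochondria libraries (median 30.0), against 32.8 to 51.8 in muscle (median 42.2). Mitochondria replicates 1, 5 and 6 reached into the muscle range, and in animals 1 and 5 the mitochondria library had the higher value. Its log2 fold change was -2.55 ± 0.14 with TMM (SE, edgeR adjusted p = 7.76e-17), -0.40 with nuclear counts (edgeR adjusted p = 0.0147) and -0.12 per mitochondrial genome count (edgeR adjusted p = 0.837).

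Tfb1m (ENSRNOG00000056223), a relative of Tfb2m that methylates the small mitochondrial ribosomal RNA, went the other way on the nuclear scale. It had 11.7 to 35.8 nuclear CPM in mitochondria libraries (median 20.9), against 6.01 to 8.61 in muscle (median 7.24), without overlap. Its log2 fold change was 1.61 with nuclear counts (edgeR adjusted p = 3.70e-08) and -0.54 ± 0.19 with TMM (SE, edgeR adjusted p = 0.00871), so the direction turns with the scaling. The TMM call was lost without muscle replicate 2 or 3, at -0.40 and -0.38 (edgeR adjusted p = 0.0602 and 0.0696), and with RLE size factors, at -0.18 (edgeR adjusted p = 0.379). In the RefSeq annotation Tfb1m overlaps Tiam2, a guanine nucleotide exchange factor gene with 123 ± 14.1 nuclear CPM in mitochondria libraries and 13.1 ± 3.66 in muscle. It also overlaps Cldn20, with 5.56 ± 3.43 in mitochondria libraries and no count in muscle. With the strand setting not given in the sources used here, reads from a shared stretch cannot be told apart.

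The RNA polymerase and its elongation factor lay near the middle of the genes expressed in muscle, at percentiles 48.3 and 38.0 of their fold changes with TMM. Polrmt (ENSRNOG00000024879) had 63.5 to 95.2 nuclear CPM in mitochondria libraries (median 71.3), against 26.7 to 38.9 in muscle (median 31.2). Replicate 6 stood highest in mitochondria and replicate 3 highest in muscle, and the groups did not overlap. The log2 fold change was -0.94 ± 0.12 with TMM (SE, edgeR adjusted p = 9.31e-09) and 1.21 with nuclear counts (edgeR adjusted p = 4.41e-10). Tefm (ENSRNOG00000004000), which keeps the polymerase from stopping early, had 17.6 to 32.3 nuclear CPM in mitochondria libraries (median 24.0), against 12.1 to 16.4 in muscle (median 14.9). Its lowest mitochondria library lay just above its highest muscle library. Its log2 fold change was -1.42 ± 0.15 with TMM (SE, edgeR adjusted p = 2.27e-10) and 0.73 with nuclear counts (edgeR adjusted p = 0.000179).

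Mterf2 (ENSRNOG00000006978), a member of the mitochondrial transcription termination factor family, was higher under all 5 scalings. It had 32.2 to 44.0 nuclear CPM in mitochondria libraries (median 37.0), against 3.93 to 7.06 in muscle (median 5.25), and was 6.91-fold higher by mean. The groups lay far apart, and mitochondria was higher in 6 of 6 animals. By rank of mean nuclear CPM among all nuclear genes, Mterf2 stood at percentile 67.8 in mitochondria libraries and 68.6 in muscle. The log2 fold change was 0.63 ± 0.16 with TMM (SE, edgeR adjusted p = 0.000655) and 2.78 with nuclear counts (edgeR adjusted p = 8.65e-15). Relative to the median of all genes tested, it stood at -1.88 on the log2 scale with TMM.

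The pair of subunits of DNA polymerase gamma moved unequally. Polg2 (ENSRNOG00000013728), the accessory subunit that holds the enzyme on the DNA, had 25.8 to 38.1 nuclear CPM in mitochondria libraries (median 30.6), against 2.13 to 3.82 in muscle (median 2.43). It was the furthest apart of the 10 genes, 12.2-fold higher by mean nuclear CPM, and rested on 34 to 74 counts per muscle library. Its rank among all nuclear genes by mean nuclear CPM was no higher, at percentile 61.6 in mitochondria libraries and 63.7 in muscle. Its log2 fold change was 1.44 ± 0.21 with TMM (SE, edgeR adjusted p = 1.49e-07) and 3.60 with nuclear counts (edgeR adjusted p = 3.51e-16). Both values are -1.07 relative to the median of all genes tested. Relative to that of nuclear genes with at least 1 CPM in muscle, the TMM value was 2.30, at percentile 89.8. Polg (ENSRNOG00000032293), the catalytic subunit, had 79.6 to 100.4 nuclear CPM in mitochondria libraries (median 86.0), against 38.3 to 46.2 in muscle (median 41.7). The libraries of each group lay close together, and the ratio of the means was 2.11. The log2 fold change was -1.08 ± 0.10 with TMM (SE, edgeR adjusted p = 4.82e-11) and 1.08 with nuclear counts (edgeR adjusted p = 9.67e-11). The Polg annotation overlaps that of Fanci, a gene of the Fanconi anaemia repair pathway with 103 ± 6.70 nuclear CPM in mitochondria libraries and 1.09 ± 0.506 in muscle, and the limit on strand given for Tfb1m holds here and for Twnk.

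Of the other factors at the fork, Twnk resembled Polg and Ssbp1 was close to its muscle level on the nuclear scale. Twnk (ENSRNOG00000014935) had 36.9 to 55.6 nuclear CPM in mitochondria libraries (median 51.2), against 23.1 to 27.0 in muscle (median 24.4). Mitochondria replicates 4 and 5 were the lowest of their group and still above every muscle library. The log2 fold change was -1.21 ± 0.12 with TMM (SE, edgeR adjusted p = 1.45e-10) and 0.94 with nuclear counts (edgeR adjusted p = 8.72e-08). Its neighbour Mrpl43, a mitochondrial ribosomal protein gene whose annotation overlaps Twnk, had 10.98 ± 3.55 nuclear CPM in mitochondria libraries and 31.1 ± 2.696 in muscle. Ssbp1 (ENSRNOG00000012100) had 15.7 to 35.8 nuclear CPM in mitochondria libraries (median 19.5), against 14.6 to 21.0 in muscle (median 19.0). Mitochondria replicates 2 and 5 lay above the muscle range and the remaining 4 inside it. The log2 fold change was -1.86 ± 0.16 with TMM (SE, edgeR adjusted p = 1.83e-12) and 0.29 with nuclear counts, which did not pass (edgeR adjusted p = 0.132).

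A ratio of 2 genes within a library does not depend on how libraries are scaled, so partners of 1 process were compared this way in 5 pairs, with Benjamini-Hochberg adjustment over the 5. The genes were chosen with their fold changes known, and so the tests of these ratios are no independent evidence. Single nuclear genes often separated the groups, 81.7% of those tested higher and 7.35% lower. The share of other gene pairs whose ratio separates the groups was not computed, so separation cannot be called particular to these partners. The Polg2 to Polg ratio was 0.301 to 0.389 in mitochondria libraries (median 0.370), against 0.0501 to 0.0988 in muscle (median 0.0574). It was higher in mitochondria in 6 of 6 animals, by 2.55 ± 0.15 on the log2 scale (SE, n = 6 each, two-sided exact permutation p = 0.00216, the smallest this design can give, adjusted p = 0.00541). The Tfb2m to Tfb1m ratio was 0.935 to 3.30 in mitochondria libraries (median 1.17), against 5.66 to 8.12 in muscle (median 6.72). It was lower in mitochondria in 6 of 6 animals, with a log2 difference of -2.36 ± 0.28 (SE, n = 6 each, exact permutation p = 0.00216, adjusted p = 0.00541). With the animals paired, the exact sign-flip p of both ratios was 0.03125, the smallest that 6 animals allow. After adjustment over the 5 pairs it was 0.0781, which does not pass. With only these 2 of the 5 pairs at the smallest p, the adjusted value could not fall under 0.05.

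The remaining differences were smaller. Ssbp1 to Polg was 0.192 to 0.449 in mitochondria libraries (median 0.202), against 0.373 to 0.499 in muscle (median 0.472), a log2 difference of -0.84 ± 0.21 (SE, n = 6 each, exact permutation p = 0.00649, adjusted p = 0.0108). With the animals paired the exact sign-flip p was 0.0625 (adjusted p = 0.104), and animal 5 alone had the higher ratio in mitochondria. Tefm to Polrmt was 0.185 to 0.472 in mitochondria libraries (median 0.351), against 0.381 to 0.538 in muscle (median 0.470). The log2 difference was -0.46 ± 0.20 (SE, n = 6 each, exact permutation p = 0.0173, adjusted p = 0.0216), and 0.0938 was the exact p with the animals paired (adjusted p = 0.117). Without mitochondria replicate 6 it was -0.30 (exact permutation, adjusted p = 0.0433). Twnk to Polg was 0.391 to 0.674 in mitochondria libraries (median 0.586), against 0.577 to 0.637 in muscle (median 0.596). The log2 difference of -0.13 ± 0.12 was within the spread between replicates (SE, n = 6 each, exact permutation p = 0.361, adjusted p = 0.361).

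**Figure D3:**
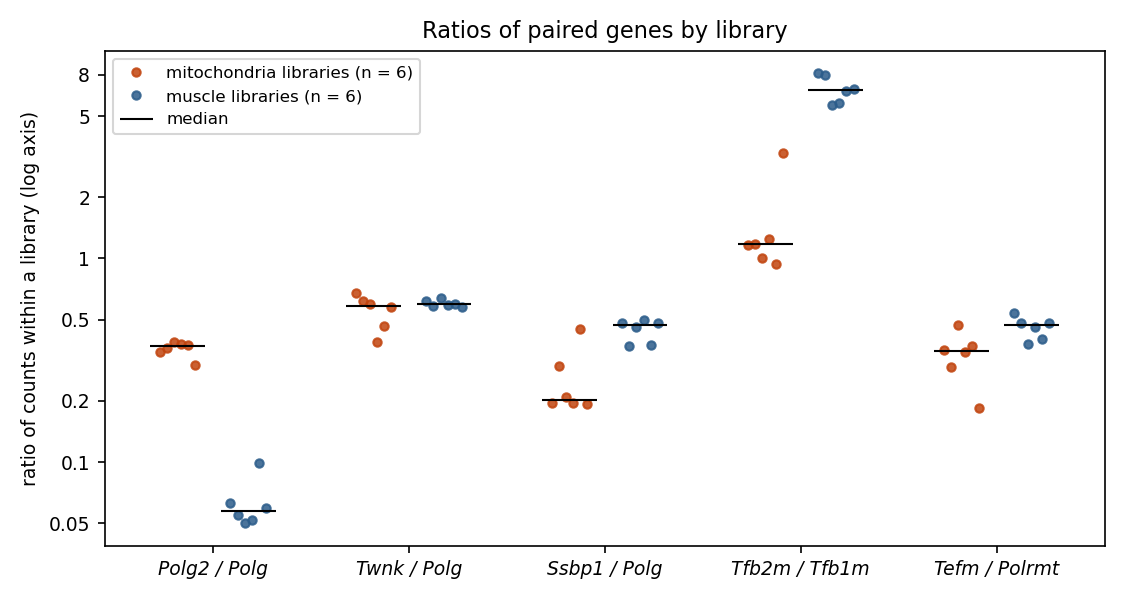
Ratio of counts of paired genes within each library on a log axis, 1 point per library, mitochondria libraries (n = 6) to the left of muscle libraries (n = 6), with a line at the median. Polg2 over Polg and Tfb2m over Tfb1m separate the groups, while Twnk over Polg overlaps.

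The 10 genes were closer to each other in mitochondria libraries than in muscle. Their mean nuclear CPM spanned 21.7 (Tfb1m) to 87.5 (Polg) in mitochondria libraries, a ratio of 4.03, against 2.59 (Polg2) to 48.6 (Tfb2m) in muscle, a ratio of 18.8. Nuclear genes with at least 1 CPM in muscle also lay closer together in mitochondria libraries, with quartiles of 28.5 and 65.2 nuclear CPM there and of 6.75 and 42.3 in muscle. These are shares of reads that are not divided by transcript length, so they do not rank the genes by number of molecules. Across the 10 genes the log2 levels in mitochondria and muscle had a Pearson correlation of 0.38 and a Spearman correlation of 0.32, given as a description over genes that share libraries.

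The spread between mitochondria libraries was close to what counting gives. The coefficient of variation of nuclear CPM lay between 9.12% (Polg) and 36.4% (Tfb1m) in mitochondria libraries, and for all 10 genes it was under 1.5 times the counting error of 12.0% to 25.2% expected from their counts. In muscle it lay between 6.92% (Twnk) and 24.1% (Polg2), where counting error was 3.33% to 14.5%. In mitochondria libraries 7 of the 10 genes varied less as nuclear CPM than as CPM of all counts, Polg by 9.12% against 22.7%. Tfb2m (26.1% as nuclear CPM, 16.0% as CPM of all counts), Tfb1m (36.4%, 34.3%) and Ssbp1 (34.2%, 33.3%) varied more.

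The levels in mitochondria libraries can be set beside genes of other organs. Olfactory receptor genes, 1117 in number, had a median nuclear CPM of 9.02 in mitochondria libraries and 0 in muscle, and 10014 nuclear genes with no muscle count had a median of 5.56 in mitochondria libraries, with an upper quartile of 13.1. All 10 genes were above those values, and above the upper quartile of the olfactory receptors, 15.8. For 77 vomeronasal type 1 receptors the upper quartile was 23.8 in mitochondria libraries and 0 in muscle, and Tfb1m at 21.7 and Ssbp1 at 22.1 lay below it. Whether these counts on genes silent in muscle bear on the scaling, and so on the direction of the 6 genes that turned with it, was not tested. Nuclear genes with at least 1 CPM in muscle had a median of 43.5 in mitochondria libraries and 17.4 in muscle, and Polrmt, Polg and Twnk were above the first. The marker calls that follow are with TMM, where 63% of all genes tested were higher and 30.3% lower. Among nuclear genes with at least 1 CPM in muscle, 24.7% were higher and 62.2% lower. Of 8 muscle fibre markers, 7 matched a name and all 7 fell. Their sums were 593 to 888 nuclear CPM in mitochondria libraries and 117065 to 161420 in muscle. All 3 adipocyte markers rose, with sums of 80.8 to 103 in mitochondria libraries and 0.0960 to 4.70 in muscle. Of 4 macrophage markers 2 rose, with sums of 247 to 330 in mitochondria libraries and 31.9 to 60.1 in muscle. All 4 fibroblast markers fell, with sums of 380 to 536 in mitochondria libraries and 2510 to 8283 in muscle. All 4 endothelial markers fell (312 to 350 in mitochondria libraries, 356 to 701 in muscle), as did all 3 of smooth muscle (216 to 277 in mitochondria libraries, 281 to 457 in muscle). Of 3 Schwann cell markers 1 fell (113 to 143 in mitochondria libraries, 22.8 to 142 in muscle), the 1 erythroid marker in the table fell with TMM (12.9 to 25.8 in mitochondria libraries, 4.23 to 9.16 in muscle), and of 2 satellite cell markers 1 rose (46.4 to 81.9 in mitochondria libraries, 6.58 to 10.0 in muscle). No marker in the table was at 0 in all libraries of a group. The part of these shifts in the values of the 10 genes was not tested.

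Other genes of the pathway were taken from 5 lists, and their counts are with TMM, beside 63% higher and 30.3% lower over all genes tested. Calls with nuclear counts stand beside 85.6% higher and 9.29% lower. Of 12 further enzymes of mitochondrial DNA maintenance, 8 rose and 2 fell, and their median log2 fold change was 0.81. With nuclear counts 11 rose and 1 fell. Primpol, a primase that restarts stalled forks, had 25.2 ± 7.22 nuclear CPM in mitochondria libraries and 0.504 ± 0.289 in muscle (SD, n = 6 each), and its log2 fold change was 3.49 ± 0.29 (SE, edgeR adjusted p = 1.67e-12). Endog, the nuclease endonuclease G, was both the most abundant of them in muscle and the one that fell furthest, with 18.9 ± 7.36 in mitochondria libraries and 53.0 ± 3.54 in muscle (log2 fold change -3.62 ± 0.16, edgeR adjusted p = 1.89e-19).

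Of 13 tested genes that supply nucleotides for mitochondrial DNA, 3 rose and 9 fell, with a median of -1.27. With nuclear counts 8 rose and 3 fell. Sucla2, a subunit of succinyl-CoA ligase, had 23.9 ± 6.17 nuclear CPM in mitochondria libraries and 437 ± 44.6 in muscle, the highest muscle level and the largest fall of the list (log2 fold change -6.33 ± 0.15, edgeR adjusted p = 1.31e-25). Abat, a transaminase of GABA breakdown with a part in nucleoside salvage, had 52.5 ± 6.63 in mitochondria libraries and 0.756 ± 0.491 in muscle (3.99 ± 0.27, edgeR adjusted p = 6.42e-15). These 2 and Primpol and Endog kept their direction under all 5 scalings.

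Of 9 other MTERF factors and nucleoid proteins, 8 fell and 1 did not pass, with a median of -2.96, and with nuclear counts 5 fell and 4 rose. Lonp1, the protease that degrades Tfam, had 65.7 ± 12.0 nuclear CPM in mitochondria libraries and 116 ± 4.67 in muscle (log2 fold change -2.96 ± 0.12, edgeR adjusted p = 4.61e-20). Phb, a prohibitin, had 39.4 ± 6.87 in mitochondria libraries and 115 ± 7.73 in muscle (-3.68 ± 0.12, edgeR adjusted p = 9.17e-23). Of 15 factors that process or turn over mitochondrial transcripts, 14 fell and 1 did not pass, with a median of -1.70, and with nuclear counts 4 fell and 8 rose. Lrpprc, which stabilises mitochondrial mRNAs, had 89.0 ± 14.4 in mitochondria libraries and 225 ± 31.95 in muscle (-3.50 ± 0.13, edgeR adjusted p = 2.69e-21). Hsd17b10, a subunit of mitochondrial RNase P, had 10.00 ± 2.45 in mitochondria libraries and 81.3 ± 10.1 in muscle (-5.14 ± 0.14, edgeR adjusted p = 6.16e-24).

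Of 10 nuclear regulators known to act upstream of such genes, 1 rose and 9 fell, with a median of -1.83, and with nuclear counts 6 rose and 2 fell. Nrf1, the transcription factor NRF1 whose site was searched in the promoters, rose under all 5 scalings, with 98.6 ± 4.82 nuclear CPM in mitochondria libraries and 18.1 ± 1.21 in muscle (log2 fold change 0.29 ± 0.11 with TMM, edgeR adjusted p = 0.0114). Without the filter on low counts its TMM value of 0.23 missed the threshold (edgeR adjusted p = 0.0520). Ppargc1b, a coactivator of mitochondrial genes, had 62.7 ± 7.37 in mitochondria libraries and 57.2 ± 6.80 in muscle (-2.04 ± 0.13 with TMM, edgeR adjusted p = 1.10e-15, and 0.12 with nuclear counts, edgeR adjusted p = 0.324). Yy1, a zinc finger factor, had 16.4 ± 2.35 in mitochondria libraries and 36.0 ± 3.74 in muscle (-3.30 ± 0.14, edgeR adjusted p = 9.38e-20). Per mitochondrial genome count, Yy1 (-0.87, edgeR adjusted p = 0.137), Lonp1 (-0.60, 0.249) and Lrpprc (-0.93, 0.0716) did not pass. The 10 replication and transcription genes had a median of -1.15 with TMM. Mitochondrial ribosomal protein genes had a median of -2.25 over 72 tested, of which 2 rose and 69 fell, and with nuclear counts 22 rose and 26 fell, with a median of -0.11. These medians are descriptions, and the differences between lists were not tested.

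**Figure D4:**
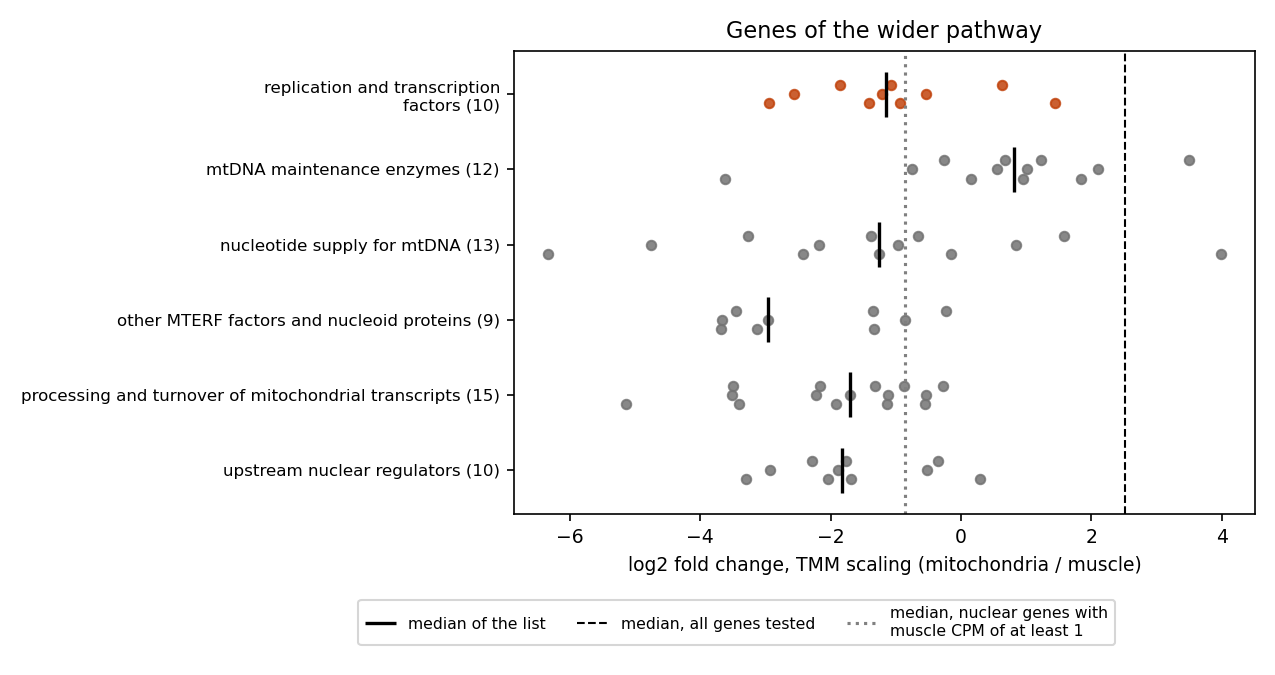
Log2 fold change with TMM scaling of the 10 genes (top) and of each tested gene of 5 pathway lists (number tested in parentheses), 1 point per gene, with a bar at the list's median and lines at the median of all genes tested and of nuclear genes with at least 1 CPM in muscle. The 10 genes centre at -1.15, the maintenance enzymes at 0.81 and the other lists between -2.96 and -1.27.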

How the data were processed

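The authors deposited raw read counts per gene for 12 libraries. FastQC 0.74, cutadapt 4.6, STAR 2.7.11a, HTSeq and the build mRatBN7.2 are named in the submitters' processing notes, with strand setting, treatment of multiply matching reads and annotation release not given in the sources used here. Genes named Mt- or AY172581 were taken as the mitochondrial genome.

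Counts were tested with edgeR 4.0.16 (glmQLFit, glmQLFTest) in R 4.3.3, with TMM scaling, filterByExpr (minimum count 10) and no term beside the group; p-values were adjusted by Benjamini-Hochberg over all genes tested, with a threshold of 0.05. SE is the absolute log2 fold change over the square root of F. All fold changes are mitochondria over muscle. The procedure was tested on simulated data in which all genes but a small set had the same share in both groups. In the real data 63% of genes tested were higher and 30.3% lower with TMM. The simulation therefore does not test the scaling on which direction depends. Ratios, with 0.5 added to each count, were compared by exact permutation (SciPy 1.17.1) over 924 groupings and by sign flips over 64 patterns. Alternatives were RLE, total, nuclear and mitochondrial genome counts as scaling, no filter, DESeq2 1.42.0, an animal block, a fold of at least 2, thinning to 573903 nuclear counts, and each library left out.

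Replicate numbers pair libraries because, per the labels, portions of the same muscle went to both preparations and libraries of a number share an animal code. Deviations from group means correlated at -0.0103 to 0.0202 within animals, and 2 of 6 mitochondria libraries correlated best with their own muscle.

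Named genes are all 10 genes and, per list, the most abundant in muscle and those with the largest rise and fall. Of the listed pathway genes, Nme4 and Fastkd5 matched no name, prohibitin was matched as Phb, and Tymp failed the filter. The genes and lists were chosen with earlier results of these data known. Promoters are from RefSeq (GRCr8), and all 10 matched by symbol. Counting errors cover sampling of reads only.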

Additional observations from a re-analysis of the deposited data

Results flagged for a closer look

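Within each group of 6 libraries, the nuclear CPM of the 10 genes and the 5 ratios were screened for a single library set apart by a wide gap, 30 groups in all, of which chance sets apart about 5%. Polrmt in mitochondria replicate 6 stood above the others of its group, at 95.2 nuclear CPM. Polg2 in muscle replicate 5 stood above the other muscle libraries, at 3.82 nuclear CPM, and so did the Polg2 to Polg ratio there, at 0.0988. Without that library the log2 fold change of Polg2 was 1.73 with TMM. The Tfb2m to Tfb1m ratio was 3.30 in mitochondria replicate 6, above the other 5 libraries, and the log2 difference was -2.62 without it (exact permutation, adjusted p = 0.0108 over the 5 pairs).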

How the results depend on the processing

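The order of the 10 genes by fold change was the same under 5 scalings, but the split into higher and lower was not. Changes between TMM, RLE, total and nuclear counts shift all 10 genes by nearly the same amount, which all but fixes their order. Genes called lower numbered 8 with TMM, 2 with total counts, 2 with nuclear counts, 0 per mitochondrial genome count (edgeR, 0 also at an unadjusted p under 0.05), 5 against a fold of 2 and 3 after thinning. Genes called higher numbered 2 with TMM, 7 with total counts and 7 with nuclear counts. They numbered 6 per mitochondrial genome count and 1 against a fold of 2. In the same order of settings, 30.3%, 9.03%, 9.29%, 4.4%, 21% and 27.9% of all genes tested were lower. The shares of genes higher were 63%, 84.3%, 85.6%, 80.7% and 56.7%. Direction reversed in 6 genes, whose log2 fold changes with total counts, nuclear counts and mitochondrial genome counts were 1.54, 1.61 and 1.81 for Tfb1m, 1.17, 1.21 and 1.53 for Polrmt, 0.69, 0.73 and 1.16 for Tefm, 1.03, 1.08 and 1.42 for Polg, 0.91, 0.94 and 1.37 for Twnk and 0.22, 0.29 and 0.45 for Ssbp1. Of these, Ssbp1 passed under none of the scalings just named (edgeR adjusted p = 0.344, 0.132 and 0.452). Tefm did not pass per mitochondrial genome count (edgeR adjusted p = 0.05001). The scaling itself sets these shifts. After thinning, Polrmt stood at 0.068, Twnk at 0.18, Tefm at -0.019 and Polg at -0.11, none past edgeR's threshold, and Tfb1m failed the filter. The cause was not tested. Of all calls, 67.5% were higher with TMM, 71.4% with RLE, 90.3% with total counts and 94.8% per mitochondrial genome count. Leaving out single libraries gave 7 to 8 genes lower and 2 higher with TMM. The shares over all genes in those fits are not given here, so these counts have no background beside them.

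With the replicate block, edgeR called the same 2 genes higher and 8 lower, against 62.9% and 30.1% of all genes tested. With the animals paired, none of the 4 ratio calls passed the exact sign-flip test after adjustment over the 5 pairs. The log2 differences were 2.55 for Polg2 to Polg and -2.36 for Tfb2m to Tfb1m (exact sign-flip, adjusted p = 0.0781 each). Only these 2 were at the smallest p that 6 animals allow, 0.03125, and after adjustment they could not pass. The others were -0.84 for Ssbp1 to Polg (exact sign-flip, adjusted p = 0.104) and -0.46 for Tefm to Polrmt (0.117). With 9 to 91 counts per gene in a mitochondria library, depth limits the precision of single values.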
